A study of Homo sapiens with 9 samples.

Results

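The genes described here were 40 regulators of pre-mRNA splicing, taken by name from the table of raw counts: 13 SR proteins (SRSF1 to SRSF11, TRA2A and TRA2B), 6 kinases that phosphorylate them (CLK1 to CLK4, SRPK1 and SRPK2), 8 SR-related factors (SON, SRRM1, SRRM2, LUC7L, LUC7L3, RBM5, RBM39 and DDX39B) and 13 hnRNPs. The rule used gene names and no measured value, although the list was drawn up with earlier results of these data known. The table held 59453 gene names, 16556 of them passed the filter on low counts, and all 40 splicing regulators were among those tested. RNA sequencing was performed on MDA-MB-231, an established human triple-negative breast cancer cell line, in 3 groups of 3 libraries. The groups were untreated cells, cells treated with the copper chelator TEPA for 8 h, and cells treated with TEPA for 24 h. The sample labels give 8 mM TEPA, the sequencing methods of the study state a lower concentration and its general treatment methods name both, so the dose is uncertain. All groups were the same line with no genetic change named in the labels. The only untreated group, whose time is not given, served both comparisons, so an effect of time in culture and an effect of TEPA cannot be told apart. The labels do not say whether replicates were separate cultures, so the p-values measure the spread between these libraries, which may be technical.

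SR proteins bind exonic enhancer sequences and recruit the splicing machinery, and their arginine-serine domains are phosphorylated by SRPK kinases in the cytoplasm and by CLK kinases in the nucleus. The hnRNPs coat nascent transcripts and often repress exons that SR proteins promote, so the balance of these families helps to set exon choice. Many genes of these families limit their own output through poison exons or retained introns, which yield transcripts that are not translated in full.

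Total counts ran from 34633755 to 49342659 per library, and the 40 genes held between 0.981% and 1.17% of them, with 556 to 46196 counts per gene and library. The line's markers were present in every group (VIM averaged 3672 ± 124, 4385 ± 51.2 and 3386 ± 137 normalized CPM (counts scaled to a common library size) in untreated, 8 h and 24 h cells, SD, n = 3). ESR1 was at most 0.240 CPM, and PGR and the T-cell marker CD3E had no count in any library. PTPRC, CD79A and DCN, markers of leukocytes, B cells and fibroblasts, did not exceed 0.133, 0.116 and 0.0784 CPM. ERBB2 was between 77.3 and 87.1 CPM in untreated cells and between 51.9 and 53.8 CPM after 24 h. The endothelial marker PECAM1 was low and moved with treatment, at 2.98 to 4.08, 0.850 to 1.251 and 7.14 to 8.98 CPM in untreated, 8 h and 24 h cells. In bulk RNA, fewer cells of a kind and less RNA per cell cannot be told apart.

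The splicing regulators moved in both directions at 8 h and mostly down after 24 h. A gene was called when the adjusted p of edgeR's quasi-likelihood test, by Benjamini-Hochberg over all genes tested, was under 0.05. At 8 h, 17 of the 40 were called higher and 11 lower than in untreated cells, where 25.2% of all genes tested were called higher and 24.5% lower. At 24 h, 7 were called higher and 23 lower, where the shares over all genes were 25.7% and 26.8%. The changes were modest in size: the median log2 fold change of the 40 was 0.06 at 8 h and -0.18 after 24 h, against -0.00 and 0.00 over all genes tested. A called log2 fold change beyond 0.5 was seen in 5 genes at 8 h, all higher, where 10.1% of all genes tested were higher and 7.67% lower by that rule. After 24 h it was seen in 1, DDX39B, which was higher, where 10.2% of all genes were higher and 8.46% lower.

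**Figure D1:**
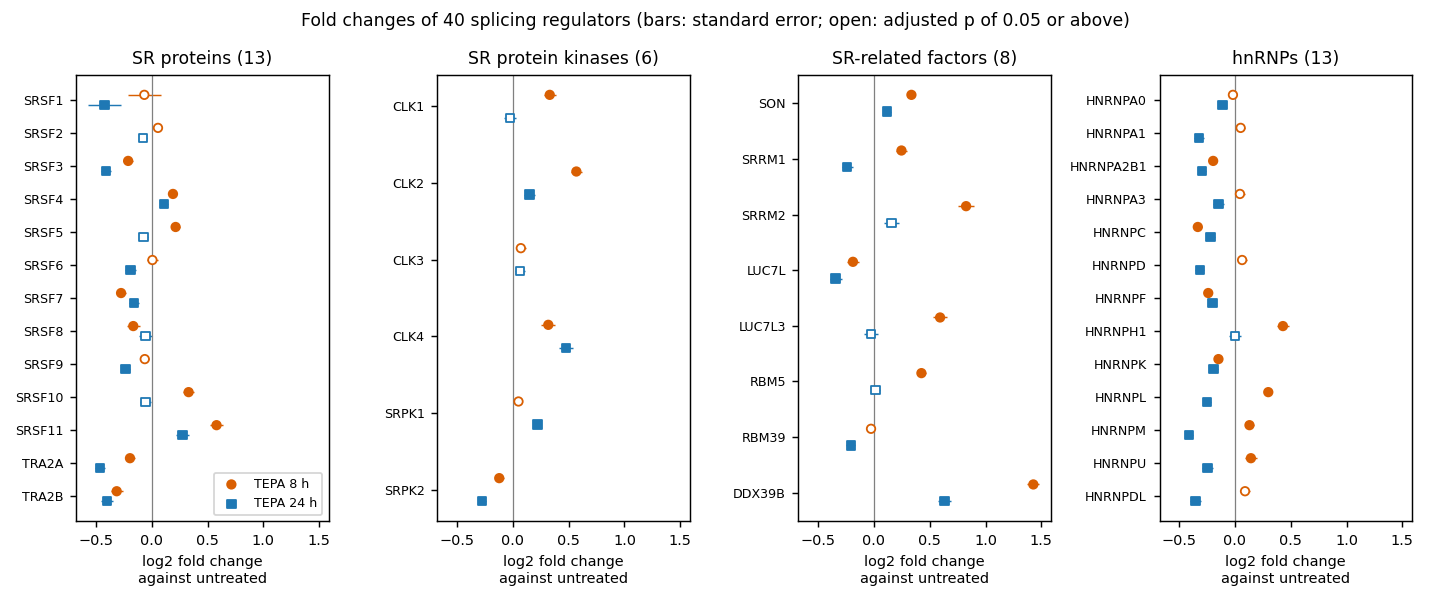
Log2 fold change of each of the 40 genes against untreated cells at 8 h (circles) and 24 h (squares), in 4 panels by class, with standard errors as bars and open symbols where the adjusted p was 0.05 or above. DDX39B lies farthest to the right at both times (1.43 and 0.63), and 12 of the 13 hnRNPs have a filled square to the left of 0.

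The promoters of some genes with large changes are shown first, and they are not a sample of the 40. The windows are 300 bases, from 250 bases before to 50 bases after the RefSeq start on GRCh38.p14, printed 5′ to 3′ on the strand of the gene. SRRM2, LUC7L3 and DDX39B had the largest rises of the SR-related factors at 8 h, CLK2 the largest rise of the kinases, and HNRNPM the largest called fall of the hnRNPs after 24 h. Capitals mark a match to the E-box (CACGTG, bound by the MYC and MiT factors) or to the core of the metal response element (TGCACNC or TGCGCNC, bound by the zinc-responsive factor MTF1), on either strand.
DDX39B, chr6:31541954-31542253, minus strand: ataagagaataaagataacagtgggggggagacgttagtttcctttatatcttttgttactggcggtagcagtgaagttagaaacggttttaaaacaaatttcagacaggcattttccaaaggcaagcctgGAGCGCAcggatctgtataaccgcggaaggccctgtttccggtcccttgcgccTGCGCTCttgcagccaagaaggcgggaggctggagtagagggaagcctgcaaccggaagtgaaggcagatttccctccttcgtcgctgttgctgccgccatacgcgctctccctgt
SRRM2, chr16:2752388-2752687, plus strand: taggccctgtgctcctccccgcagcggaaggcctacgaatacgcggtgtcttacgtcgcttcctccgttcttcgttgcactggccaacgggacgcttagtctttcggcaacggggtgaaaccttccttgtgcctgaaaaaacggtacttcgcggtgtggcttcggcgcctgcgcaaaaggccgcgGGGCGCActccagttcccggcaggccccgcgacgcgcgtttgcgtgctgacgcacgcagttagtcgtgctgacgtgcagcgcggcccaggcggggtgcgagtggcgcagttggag
LUC7L3, chr17:50719353-50719652, plus strand: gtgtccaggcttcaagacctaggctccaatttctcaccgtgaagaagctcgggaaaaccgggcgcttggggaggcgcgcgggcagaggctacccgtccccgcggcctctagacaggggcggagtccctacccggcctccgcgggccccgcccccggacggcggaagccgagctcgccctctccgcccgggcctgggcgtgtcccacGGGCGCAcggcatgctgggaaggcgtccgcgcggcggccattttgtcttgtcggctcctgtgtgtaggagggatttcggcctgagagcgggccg
CLK2, chr1:155273455-155273754, minus strand: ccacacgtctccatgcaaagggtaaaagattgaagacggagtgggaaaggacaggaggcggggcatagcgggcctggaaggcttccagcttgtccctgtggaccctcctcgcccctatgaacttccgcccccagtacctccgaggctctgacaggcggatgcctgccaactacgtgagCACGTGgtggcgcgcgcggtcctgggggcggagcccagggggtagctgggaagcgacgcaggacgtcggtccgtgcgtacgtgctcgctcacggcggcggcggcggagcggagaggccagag
HNRNPM, chr19:8444725-8445024, plus strand: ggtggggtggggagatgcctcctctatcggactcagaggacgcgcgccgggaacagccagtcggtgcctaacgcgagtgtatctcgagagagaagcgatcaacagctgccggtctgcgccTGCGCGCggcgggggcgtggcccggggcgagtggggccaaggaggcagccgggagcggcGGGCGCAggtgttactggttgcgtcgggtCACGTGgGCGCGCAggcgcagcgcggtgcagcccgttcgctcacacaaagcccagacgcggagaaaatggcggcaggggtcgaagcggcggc
DDX39B held the metal response core on both strands, SRRM2 and LUC7L3 held it once, CLK2 held an E-box alone, and HNRNPM held an E-box next to matches of the metal response core. Windows were found for 36 of the 40 genes, and HNRNPA1, SRSF2, RBM39 and TRA2A had none in the table used. The metal response core was in 15 of the 36 (41.7%), against 29.3% of all 27305 promoters. By class it was in 4 of 11 SR proteins, 3 of 6 kinases, 4 of 7 SR-related factors and 4 of 12 hnRNPs. Genes not called at 8 h held it too (SRSF1, SRSF6, SRSF9, SRPK1 and HNRNPA0), and some called higher did not (SRSF4, SRSF5, SRSF11, CLK2, SON and RBM5 among them). The set of all promoters was not matched to the 36 for expression or base content. An E-box was in 6 of the 36 (16.7%), against 7.43% of all promoters, and these were CLK2, CLK4, HNRNPA3, HNRNPD, HNRNPM and HNRNPDL. The cAMP response element TGACGTCA, searched in the same way, was in 0 of the 36 and in 1.98% of all promoters. The windows of SRSF11 and HNRNPL, 2 further genes with large changes, held no match of any of the 3 motifs. A match describes letters in the window and does not show that a factor was bound.

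SR proteins split at 8 h. Of the 13, 4 rose (SRSF4, SRSF5, SRSF10 and SRSF11), 5 fell (SRSF3, SRSF7, SRSF8, TRA2A and TRA2B) and 4 were not called (SRSF1, SRSF2, SRSF6 and SRSF9), and their median log2 fold change was -0.06. The shares over all genes tested were 25.2% higher and 24.5% lower. SRSF11, an SR protein of the p54 type that interacts with U2AF, was 121, 127 and 128 CPM in the untreated libraries, 202.5, 180.1 and 179.8 CPM at 8 h, and 151, 139.6 and 165 CPM after 24 h. No library of one group overlapped another, and 24 h lay between the other groups. The log2 fold change was 0.58 ± 0.06 (SE) at 8 h (adjusted p = 8.8e-07) and 0.28 ± 0.06 after 24 h (adjusted p = 8.4e-04). SRSF10, which represses splicing when it loses its phosphates, rose to 182.8 ± 7.85 CPM from 145 ± 8.05 CPM (SD, n = 3) at 8 h and was 139.8 ± 7.44 CPM after 24 h. SRSF5 had the same course, with log2 fold changes of 0.21 at 8 h and -0.08 after 24 h, the latter not called (adjusted p = 0.13) except without untreated replicate 1 (-0.11). SRSF4 rose at both times, by 0.19 and 0.11. The call of SRSF4 after 24 h was lost with no filter on low counts (0.10) and without untreated replicate 1 (0.08), untreated replicate 3 (0.11), 24 h replicate 1 (0.11) or 24 h replicate 3 (0.10).

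SRSF3, SRSF7, TRA2A and TRA2B were below untreated cells after 24 h as well. TRA2A, a sequence-specific activator of exons with GA-rich enhancers, was 60.1, 64.4 and 63.1 CPM untreated, 56.1, 54.5 and 53.4 CPM at 8 h, and 44.5, 44.1 and 47.5 CPM after 24 h. The 3 groups did not overlap, and each was below the one before it. Its log2 fold change was -0.20 ± 0.05 (SE) at 8 h (adjusted p = 0.0020) and -0.47 ± 0.05 after 24 h (adjusted p = 4.6e-07), the largest fall of the 40 genes at that time. Its paralog TRA2B fell by 0.31 and 0.40, and SRSF3, the smallest classical SR protein, fell by 0.21 and 0.41 on the log2 scale. SRSF7, close in structure to SRSF3, was 135.7 ± 6.25, 112 ± 5.03 and 121 ± 0.788 CPM in untreated, 8 h and 24 h cells (SD, n = 3). SRSF8, encoded by a gene without introns in its coding part, was called lower at 8 h (-0.17, adjusted p = 0.023) but not after 24 h (-0.06). The 8 h call of SRSF8 was lost without untreated replicate 3 (-0.14), 8 h replicate 1 (-0.16) or 8 h replicate 2 (-0.16).

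SRSF1, SRSF6 and SRSF9 were called lower after 24 h only, and SRSF2 at neither time. SRSF2 was 353.3, 385 and 377 CPM untreated and 351.6, 352.8 and 350.8 CPM after 24 h, without overlap, and was called lower without untreated replicate 1 (-0.12). Whether those times differed was tested directly: SRSF6 (-0.20) and SRSF9 (-0.17) were lower after 24 h than after 8 h, and SRSF1 (-0.36, adjusted p = 0.052) was not called. SRSF1, the founding SR protein and an oncogene in breast cells, varied most between replicates. It was 64.9, 76.2 and 86.3 CPM untreated, 91.8, 63.3 and 61.9 CPM at 8 h, and 57.9, 44.3 and 67.7 CPM after 24 h. The untreated and 24 h libraries overlapped, although the gene was called lower after 24 h (-0.42 ± 0.15 SE, adjusted p = 0.024). The call was lost without untreated replicate 3 (-0.32), 24 h replicate 1 (-0.44) or 24 h replicate 2 (-0.28), and with DESeq2 (adjusted p = 0.15). SRSF1 also shares 32.7% of its exon bases with another gene on the same strand in the annotation used for overlaps. Read pairs wholly within such bases are by default assigned to neither gene. The counts were made with another release, in which this overlap was not checked.

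Among the kinases, 3 of the 4 CLK genes rose at 8 h and neither SRPK gene did, where 25.2% of all genes tested were called higher. CLK2 was 31.6, 32.0 and 31.2 CPM untreated, 46.3, 45.3 and 49.1 CPM at 8 h, and 34.25, 34.15 and 36.9 CPM after 24 h. The 8 h libraries stood above all others, and those of 24 h lay just above the untreated ones. Its log2 fold change was 0.57 ± 0.05 (SE) at 8 h (adjusted p = 2.1e-07) and 0.15 ± 0.05 after 24 h (adjusted p = 0.019). The 24 h call of CLK2 was lost without untreated replicate 3 (0.14) or 24 h replicate 3 (0.11). CLK4 went the other way in time: it was 14.8, 16.5 and 16.5 CPM untreated, 20.1, 20.3 and 19.3 CPM at 8 h, and 21.97, 21.8 and 22.8 CPM after 24 h. All treated libraries lay above all untreated ones, with log2 fold changes of 0.32 at 8 h (adjusted p = 4.6e-04) and 0.48 after 24 h (adjusted p = 7.3e-06). CLK1, whose own transcript retains introns that are spliced out on stress, rose by 0.33 at 8 h (adjusted p = 1.2e-04) and was not called after 24 h (-0.02, adjusted p = 0.75). CLK3 was called at neither time, with 47.3 ± 1.36, 49.8 ± 0.430 and 49.6 ± 2.12 CPM (SD, n = 3).

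The SRPK genes moved apart. SRPK1, which releases SR proteins for import into the nucleus and is often raised in breast tumors, was 187 ± 1.34, 194 ± 3.18 and 218 ± 6.04 CPM (SD, n = 3) and was called higher after 24 h alone (0.22, adjusted p = 5.9e-05). Its level after 24 h was also higher than after 8 h (0.17, adjusted p = 5.8e-04). SRPK2 fell at both times, by 0.12 and 0.28 on the log2 scale. The 8 h call of SRPK2 was lost without untreated replicate 3 (-0.12) or 8 h replicate 3 (-0.12). Summed over the 6 genes, kinase transcripts were 378 ± 4.37 CPM untreated, 409.7 ± 4.59 CPM at 8 h and 409.7 ± 8.93 CPM after 24 h, and every treated library was above every untreated one. The sums rested on different genes. At 8 h CLK2 gained the most CPM, from a mean of 31.6 to 46.9. After 24 h SRPK1 gained the most (187 to 218), CLK1 and SRPK2 were below their untreated means, and the other genes gained less.

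**Figure D2:**
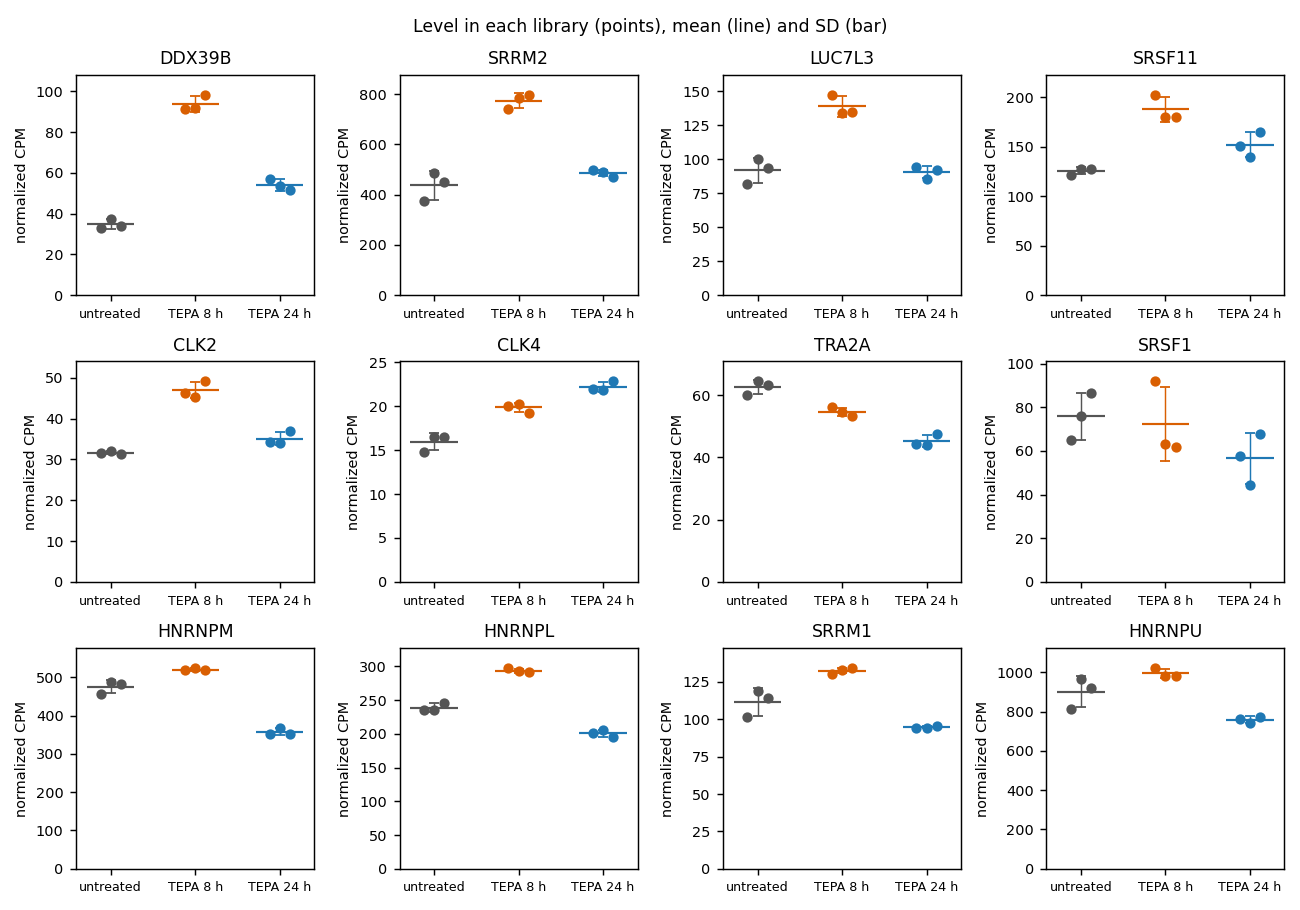
Normalized CPM in each library (points), with the mean (line) and SD (bar), for the 12 genes whose per-library values are given, in untreated, 8 h and 24 h cells, each panel with its own axis from 0. DDX39B, SRRM2, LUC7L3 and CLK2 peak at 8 h, CLK4 is highest and TRA2A lowest after 24 h, and HNRNPM, HNRNPL, SRRM1 and HNRNPU are above untreated at 8 h and below it after 24 h.

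At 8 h the SR-related factors had the largest median change of the 4 classes. Of the 8, 6 rose at 8 h, LUC7L fell (-0.19) and RBM39 was not called (-0.03), and their median log2 fold change was 0.38. The shares over all genes tested were 25.2% higher and 24.5% lower. SRRM2, a very large serine- and arginine-rich scaffold of nuclear speckles, was 374, 487 and 449 CPM untreated, 739.6, 786 and 799 CPM at 8 h, and 497, 492 and 472 CPM after 24 h. The 8 h libraries stood well above the others, while the untreated and 24 h ranges overlapped. The log2 fold change was 0.83 ± 0.07 (SE) at 8 h (adjusted p = 1.4e-07) and 0.16 ± 0.07 after 24 h (adjusted p = 0.067), and the latter was called without untreated replicate 2 (0.24), with DESeq2 (0.16), under the replicate block (0.16), with upper-quartile factors (0.18) and with no filter (0.15). LUC7L3, an RS-domain relative of a U1 snRNP component that acts at 5′ splice sites, was 82.1, 100.3 and 93.9 CPM untreated, 148, 134 and 135 CPM at 8 h, and 94.1, 85.4 and 92.3 CPM after 24 h. It rose by 0.59 at 8 h (adjusted p = 1.5e-06) and was back in the untreated range after 24 h (-0.02, adjusted p = 0.77). RBM5, a regulator of exons in apoptosis genes, had the same course (0.43 at 8 h, adjusted p = 4.1e-07, and 0.01 after 24 h). SON, the partner of SRRM2 in speckles, rose at both times (0.34 and 0.12).

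SRRM1, the SRm160 coactivator, rose at 8 h and fell after 24 h. It was 101, 119 and 114.5 CPM untreated, 130.5, 133 and 134 CPM at 8 h, and 94.1, 94.3 and 95.5 CPM after 24 h. The groups did not overlap, and the log2 fold changes were 0.25 ± 0.05 (SE) at 8 h (adjusted p = 6.0e-04) and -0.24 ± 0.05 after 24 h (adjusted p = 7.1e-04). LUC7L was lower at both times (-0.19 and -0.34), unlike its relative LUC7L3. RBM39, a U2AF-like coactivator, was lower after 24 h (-0.21, adjusted p = 3.8e-04). Summed over the 8 genes, SR-related transcripts were 1411 ± 108 CPM untreated, 1982 ± 27.6 CPM at 8 h and 1445 ± 12.9 CPM after 24 h.

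Nuclear and mitochondrial RNA moved along with the 8 h rise of the SR-related factors. MALAT1, a nuclear noncoding RNA held in speckles, was 8.13 to 11.8 CPM untreated, 38.8 to 41.3 CPM at 8 h and 11.9 to 15.3 CPM after 24 h. NEAT1, the scaffold of paraspeckles, was 48.9 to 58.3, 88.4 to 100.2 and 27.1 to 34.2 CPM. Mitochondrially encoded genes took 1.79% to 2.91% of counts untreated, 3.61% to 4.02% at 8 h and 1.89% to 2.02% after 24 h. Their part in the changes of the splicing regulators was not tested.

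DDX39B, the DEAD-box helicase UAP56 that acts in spliceosome assembly and mRNA export, had the largest change of the 40 genes at both times. It was 33.0, 37.5 and 34.1 CPM untreated, 91.4, 91.8 and 98.4 CPM at 8 h, and 56.9, 53.65 and 51.4 CPM after 24 h. The 3 groups were far apart, with 24 h between the other groups. It was 2.69-fold higher at 8 h (log2 1.43 ± 0.05 SE, adjusted p = 1.3e-10) and 1.55-fold higher after 24 h (log2 0.63 ± 0.06 SE, adjusted p = 1.5e-07). The count of this gene may cover only part of its transcripts. The gene lies at chr6:31530219-31542448 on the minus strand of hg38, and the readthrough gene ATP6V1G2-DDX39B shares 2079 of its exon bases, which are 74.8% of the exon bases of its protein-coding transcripts. The readthrough gene itself had 0 counts in 8 libraries and 1 in the other. Of the 4850 exon bases of DDX39B shared with no other gene, 13.9% lie in protein-coding transcripts, and the rest belong to other annotated transcripts, among them 5 with a retained intron. In the annotation used for these overlaps, reads could thus be assigned to DDX39B alone mainly in stretches that its protein-coding transcripts do not hold. The counts were made with another release, in which these overlaps were not checked.

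**Figure D3:**
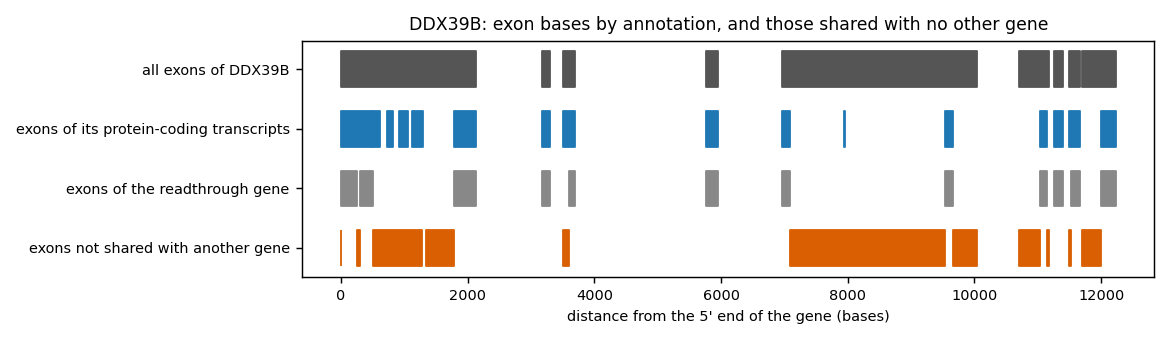
Exon bases along DDX39B, by distance in bases from the 5′ end of the gene, for all its transcripts, its protein-coding transcripts, the readthrough gene that overlaps it, and the bases that no other gene shares. The longest unshared block lies where the protein-coding transcripts have little exon sequence, the block near the 5′ end holds several of their exons, and they cover 13.9% of all unshared bases.

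Retained introns and decay-prone exons are counted with spliced RNA for other genes too. Exon counts by gene name add all annotated transcripts, so a gain of spliced RNA and a gain of intron-retaining RNA cannot be told apart here. The share of exon bases outside protein-coding transcripts had a median of 49.1% over the 17 genes called higher at 8 h, 36.4% over the 11 called lower and 7.86% over the 12 not called. It ranged from 5.94% (LUC7L3) to 73.9% (SRSF4) over the 17. After 24 h against untreated, the medians over genes called higher, lower and not called were 50.2%, 36.4% and 34.2%. For 24 h against 8 h they were 32%, 38.3% and 24.4%, so the order of higher and lower was reversed. The share counts bases of every transcript type other than protein-coding, so it does not measure intron retention or decay. For CLK2 it was 41.1%, with no transcript annotated as intron-retaining or decay-prone. These shares are given as a description, with no test.

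The hnRNPs were split at 8 h and almost uniformly lower after 24 h. At 8 h, 4 of the 13 rose (HNRNPH1, HNRNPL, HNRNPM and HNRNPU), 4 fell (HNRNPA2B1, HNRNPC, HNRNPF and HNRNPK) and 5 were not called. The median log2 fold change of the class was 0.05 at that time, when 25.2% of all genes tested were called higher and 24.5% lower. At 24 h, 12 fell and none rose, with a median of -0.25, where 26.8% of all genes tested were called lower and 25.7% higher. HNRNPH1 was the exception (0.00, adjusted p = 0.98). In all 12, the 24 h libraries lay below every untreated library, where 28.9% of all genes tested did so. Summed over the 13 genes, hnRNP transcripts were 7290 ± 296 CPM untreated, 7304 ± 149 CPM at 8 h and 6192 ± 108 CPM after 24 h (SD, n = 3).

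HNRNPM, HNRNPL and HNRNPU rose at 8 h and fell after 24 h. HNRNPM, a GU-binding factor known for splicing of CD44 in breast cancer cells that change from an epithelial to a mesenchymal state, was 456, 488 and 483 CPM untreated, 519, 524 and 518 CPM at 8 h, and 353, 369 and 352 CPM after 24 h. The log2 fold change was 0.13 ± 0.04 (SE) at 8 h (adjusted p = 0.0078) and -0.41 ± 0.04 after 24 h (adjusted p = 1.9e-07). HNRNPL, which binds CA-rich RNA, was 235.3, 235.1 and 246 CPM untreated, 297, 292.5 and 291 CPM at 8 h, and 201, 205 and 195.5 CPM after 24 h. Both genes had 3 groups without overlap, and HNRNPL rose by 0.30 (adjusted p = 4.4e-06) and then fell by 0.25 (adjusted p = 2.0e-05) against untreated cells on the log2 scale. HNRNPU, a scaffold-attachment factor that binds RNA and chromatin, was 813, 968 and 919 CPM untreated, 1020.0, 979 and 982 CPM at 8 h, and 763, 741 and 774 CPM after 24 h. Its rise at 8 h (0.14, adjusted p = 0.029) lost its call in 5 fits that left out 1 library. The rise was 0.07 without untreated replicate 1, 0.15 without untreated replicate 3, and 0.12, 0.15 and 0.15 without 8 h replicate 1, 2 or 3. None of these passed the test. Its fall after 24 h was -0.25 (adjusted p = 7.6e-04).

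HNRNPH1, which binds runs of guanosine, had the largest rise of the hnRNPs at 8 h. It was 452, 526.5 and 493 CPM untreated, 697, 642 and 643 CPM at 8 h, and 499, 469.6 and 506 CPM after 24 h, chosen here after its values were seen. The 8 h libraries stood above all others (0.43, adjusted p = 6.1e-06), and those of 24 h lay within the untreated range. The other 9 hnRNPs took 2 courses. HNRNPA2B1, HNRNPC, HNRNPF and HNRNPK were lower at both times. HNRNPC, which binds uridine tracts and shields cryptic exons, had the largest fall of the hnRNPs at 8 h, from 709 ± 22.9 CPM to 563 ± 10.8 CPM (log2 -0.33, adjusted p = 1.9e-06), and was 609 ± 9.69 CPM after 24 h (SD, n = 3). HNRNPA1, HNRNPD, HNRNPDL, HNRNPA0 and HNRNPA3 were not called at 8 h and were lower after 24 h. HNRNPA1, an exon repressor that counters SRSF1, was 857.5 ± 48.9, 888 ± 14.3 and 687 ± 21.2 CPM, and HNRNPD (AUF1), which binds AU-rich mRNAs that decay fast, was 295 ± 11.1, 308 ± 13.7 and 237 ± 3.57 CPM. HNRNPDL, its relative, fell by 0.35 after 24 h (adjusted p = 9.1e-06), and its small 8 h difference was called without untreated replicate 2 (0.12). HNRNPA0 (-0.11) and HNRNPA3 (-0.15) fell least after 24 h, and the call of HNRNPA3 was lost without 24 h replicate 2 (-0.12). Processed pseudogenes took reads that may belong to some of these genes. The 75 named after HNRNPA1 took between 5.90% and 6.58% of the counts of the gene and these copies together, and adding pseudogene counts to the parent genes changed no call of the 40.

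The comparison of SR proteins and kinases with hnRNPs gave different counts after 24 h. Over the 19 SR proteins and kinases, 7 rose and 6 fell at 8 h, where 25.2% of all genes tested were called higher and 24.5% lower. Their median log2 fold change was 0.05, the same to 2 decimals as the median of the hnRNPs. At 24 h, 5 rose and 8 fell (median -0.08), beside 0 and 12 of the 13 hnRNPs (median -0.25). The shares over all genes were then 25.7% higher and 26.8% lower, so the 5 of 19 higher (26.3%) were near the share over all genes. SR proteins alone had 2 higher and 7 lower (median -0.16), and the kinases had 3 higher and 1 lower (median 0.11). The 5 that rose after 24 h were SRSF4, SRSF11, CLK2, CLK4 and SRPK1, and the count was 3 without untreated replicate 3 or without 24 h replicate 3. These counts describe the classes and were not compared by a test, since members were chosen with results of these data known.

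From 8 h to 24 h most of the splicing regulators fell. Of the 40, 29 were called lower after 24 h than after 8 h and 4 higher, where 28.8% and 26% of all genes tested were (54.8% in either direction). Beyond a log2 difference of 0.5, 5 of the 40 were lower and 0 higher, where 10.8% and 10.4% of all genes were. All 8 SR-related factors were lower (median -0.45), as were 10 of the 13 hnRNPs (median -0.37) and 8 of the 13 SR proteins (median -0.20). The kinases divided, with CLK1, CLK2 and SRPK2 lower, CLK4 and SRPK1 higher and CLK3 not called. The largest falls on the log2 scale were those of DDX39B (-0.80 ± 0.05 SE, adjusted p = 7.6e-09), SRRM2 (-0.67 ± 0.07), LUC7L3 (-0.62 ± 0.06), HNRNPL (-0.55 ± 0.04) and HNRNPM (-0.54 ± 0.04). Among the 4 that were higher, SRSF7 (0.11) and HNRNPC (0.11) had been called lower than untreated at 8 h. The call of SRSF7 was lost without 8 h replicate 2 (0.11), 8 h replicate 3 (0.10), 24 h replicate 1 (0.11) or 24 h replicate 2 (0.11), and that of HNRNPC without 8 h replicate 2 (0.10). The call of CLK4 (0.16) was lost without 8 h replicate 1 (0.17), 8 h replicate 3 (0.14), 24 h replicate 1 (0.17) or 24 h replicate 3 (0.14), and also under the replicate block (0.16) and with no filter (0.17). The count of higher SR proteins and kinases, 3, was 1 without 8 h replicate 3 or 24 h replicate 1.

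Small falls from 8 h to 24 h were not called in every fit in 3 further genes. The call of LUC7L (-0.15) was lost without 8 h replicate 1 (-0.10) or 24 h replicate 2 (-0.15). The call of HNRNPA0 (-0.10) was lost without 8 h replicate 1 (-0.07) or 3 (-0.10), or without any of the 24 h libraries (-0.10, -0.09 and -0.09). With all libraries kept, the call of HNRNPA0 was also lost with no filter on low counts (-0.09) and with only the 2 groups compared (-0.07). That of HNRNPA2B1 (-0.10) was lost without untreated replicate 3 (-0.10), without any 8 h library (-0.08, -0.11 and -0.10), or without 24 h replicate 1 (-0.10) or 2 (-0.08). The call of HNRNPA2B1 was also lost with RLE factors (-0.09), upper-quartile factors (-0.09), no filter (-0.09), the replicate block (-0.10) and only the 2 groups compared (-0.08). Conversely, SRSF1 was called lower after 24 h than after 8 h without untreated replicate 1 (-0.36), 8 h replicate 2 (-0.44), 8 h replicate 3 (-0.45) or 24 h replicate 3 (-0.50), and with all libraries kept under the replicate block (-0.36) and with no filter (-0.35).

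Compared per length of exon, 3 hnRNPs had the highest levels of the 40 genes in untreated cells. HNRNPK, which binds cytidine-rich RNA, had 147 ± 5.24 CPM per kilobase of exon bases (SD, n = 3), HNRNPF 141 ± 1.52 and HNRNPA1 128 ± 7.30, and SRSF2 followed with 124.9 ± 5.52. HNRNPA1 and SRSF2 differed by less than their SDs. The lowest levels were those of CLK4 (2.01 ± 0.122), CLK3 (2.40 ± 0.0689), SRSF8 (4.76 ± 0.189) and DDX39B (4.97 ± 0.334 CPM per kilobase), and SRSF8 and DDX39B differed by less than the SD of DDX39B. These levels divide by all annotated exon bases, including those that these cells may not use and those shared with another gene, where reads may go unassigned. The latter are 30.8% of the exon bases of DDX39B, so its place in this order is uncertain.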

How the data were processed

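MDA-MB-231 cells were sequenced in 9 libraries, grouped by the treatment and time in the labels. After FastQC, the authors mapped the reads to hg38 using HISAT2. Counting used featureCounts on read pairs over exons, grouped by gene name and strand-specific, with Ensembl's annotation of GRCh38. The deposited values are these counts, not normalized. By this counter's default, read pairs wholly within exons of more than 1 gene are not assigned, and exons of intron-retaining transcripts are counted.

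Counts were analyzed in R 4.3.3 with edgeR 4.0.16 (limma 3.58.1). The filter was filterByExpr (minimum count 10). Counts were scaled by TMM (factors 0.978 to 1.04), and genes were tested by the quasi-likelihood test in 1 fit over all 9 libraries without covariates. Benjamini-Hochberg adjustment ran over 16556 genes, and calls used 0.05. edgeR's common biological coefficient of variation came to 0.0481. As 3 libraries were set against 3, a permutation test of a single gene could not go below 0.1 and none is given. Each standard error is the size of the log2 fold change over the root of its F statistic. CPM use TMM-scaled library sizes. The procedure was tested on simulated counts with the same spread in every gene, which does not show its error rate in these data.

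Members, other lists, tests and alternatives were chosen with earlier results of these data known. Values in each library are given for the 5 largest called changes at 8 h, at 24 h and between them. They are also given for genes called in opposite directions and, outside this rule, for HNRNPH1 and SRSF2. From other lists, the 3 largest called changes per list and comparison may be named. SRSF3 and other genes are given by group means. Alternatives were upper-quartile or RLE factors, the study's own tool DESeq2 (1.42.0), no filter and a stricter filter, a log2 limit of 0.5, fits of only 2 groups, a replicate block, pseudogene counts added, mitochondrially encoded genes left out, and each library left out. Replicates in no group agreed within sampling noise. Promoters came from RefSeq GRCh38.p14 and exon overlaps from GENCODE on hg38, the assembly of the authors but another release of the annotation. Groups of 3 were not tested for outliers.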

Additional observations from a re-analysis of the deposited data

Results flagged for a closer look

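Levels differed between TEPA-treated cells at 8 h and 24 h in 33 of the 40 genes. The direct test of 24 h against 8 h was used (edgeR's quasi-likelihood test, adjusted p under 0.05), with 29 lower at 24 h and 4 higher. That contrast uses the untreated libraries only through the filter on low counts, the scaling factors and the shared estimate of spread. With only the 2 groups compared, 27 of the 40 were lower and 5 higher. Over all 16238 genes tested in that fit, 4541 were lower and 4910 higher. No untreated group was matched to each time, so a change with time in culture cannot be told apart from a change in the effect of TEPA. Over all genes tested, 54.8% were called in this contrast.

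Among SR proteins the log2 differences (24 h minus 8 h) were -0.14 for SRSF2, -0.20 for SRSF3, -0.29 for SRSF5, -0.20 for SRSF6, 0.11 for SRSF7, -0.17 for SRSF9, -0.39 for SRSF10, -0.30 for SRSF11 and -0.27 for TRA2A. Among kinases they were -0.35 for CLK1, -0.42 for CLK2, 0.16 for CLK4, 0.17 for SRPK1 and -0.15 for SRPK2. SRPK1 and CLK4 were thus higher at the later time, while CLK1 and CLK2 had fallen back.

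Among SR-related factors the log2 differences were -0.22 for SON, -0.49 for SRRM1, -0.67 for SRRM2, -0.15 for LUC7L, -0.62 for LUC7L3, -0.41 for RBM5, -0.18 for RBM39 and -0.80 for DDX39B. Among hnRNPs they were -0.10 for HNRNPA0, -0.37 for HNRNPA1, -0.10 for HNRNPA2B1, -0.19 for HNRNPA3, 0.11 for HNRNPC, -0.38 for HNRNPD, -0.43 for HNRNPH1, -0.55 for HNRNPL, -0.54 for HNRNPM, -0.39 for HNRNPU and -0.44 for HNRNPDL. HNRNPF and HNRNPK, lower than untreated at both times, were not called in this contrast.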

How the results depend on the processing

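No log2 fold change of the 40 genes changed sign past the threshold in any alternative. Apart from single libraries left out, 1062 of the gene results kept direction and call, 7 gained a call and 11 lost one. With single libraries left out, 1029 kept them, 9 gained a call and 42 lost one. Every gene had at least 556 counts in each library. With all libraries kept, class medians and counts held (counts within 1.5 times) under every alternative but a log2 limit of 0.5. With that limit, SR proteins and kinases had 2 genes higher and 0 lower at 8 h, 0 and 0 at 24 h, and 0 and 0 between the times, and hnRNPs had 0 and 0 at 8 h, 0 lower at 24 h, and 0 higher and 2 lower between the times, so nearly all class counts rest on changes under that size.

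With each library left out in turn, SR proteins and kinases had 7 to 7 genes higher, 4 to 6 lower and a median of 0.02 to 0.05 at 8 h, 3 to 5 higher, 7 to 10 lower and a median of -0.11 to -0.06 at 24 h, and 1 to 3 higher, 11 to 13 lower and a median of -0.19 to -0.14 between the times. The hnRNPs had 3 to 5 higher, 4 to 4 lower and a median of 0.00 to 0.07 at 8 h, 0 to 0 higher, 11 to 12 lower and a median of -0.26 to -0.21 at 24 h, and 0 to 1 higher, 8 to 10 lower and a median of -0.39 to -0.34 between the times.

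Same-numbered libraries did not deviate together (correlations of -0.080 to 0.038 over 9 pairs), so the numbers were not taken as pairs. With the replicate block, SR proteins and kinases had 7 higher and 6 lower at 8 h, 5 and 8 at 24 h, and 2 and 12 between the times, and hnRNPs had 4 and 4, 0 and 12, and 1 and 9. The block gained calls of SRRM2 (24 h against untreated, 0.16) and SRSF1 (24 h against 8 h, -0.36), lost those of CLK4 (0.16) and HNRNPA2B1 (-0.10) for 24 h against 8 h, and changed no other call.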

Other observations

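Other genes of the splicing machinery were counted in the same fit, from lists chosen with earlier results of these data known. At 8 h, 14 of 26 other SR-related factors tested were called higher and 2 lower (25.2% and 24.5% over all genes), with a median log2 fold change of 0.12. SRSF12 did not pass the filter. The largest were NKTR, a cyclophilin with an RS domain (1.11 ± 0.06 SE, adjusted p = 9.4e-10), RSRP1 (0.81 ± 0.08) and PNISR (0.66 ± 0.05), by edgeR's quasi-likelihood test. At 24 h, 2 were higher and 11 lower (25.7% and 26.8% over all genes). NKTR was then still higher (0.42), and RSRC1 (-0.64) and the U2-associated factor U2SURP (-0.51) were lower.

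Of 19 other hnRNPs and related RNA-binding proteins, 6 were higher and 4 lower at 8 h (25.2% and 24.5% over all genes). At 24 h, 3 were higher and 15 lower (25.7% and 26.8% over all genes), with a median of -0.29. TAF15 (-0.51), HNRNPH3 (-0.43) and PCBP2 (-0.40) fell most at 24 h. PTBP1, the polypyrimidine tract binding repressor, was higher at 8 h (0.35, adjusted p = 3.4e-06) and lower at 24 h (-0.35, adjusted p = 2.6e-06), the same course as HNRNPL and HNRNPM.

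Of 49 core spliceosome genes, 17 were higher and 7 lower at 8 h, and 5 higher and 21 lower at 24 h. The shares over all genes tested were 25.2% and 24.5% at 8 h, and 25.7% and 26.8% at 24 h. U2AF2 rose by 0.47 at 8 h and DDX46, a helicase of the U2 snRNP, by 0.73 at 8 h and 0.56 at 24 h, while SF1, which binds the branch point, fell by 0.54 at 24 h. U2AF1 was called higher at 8 h (0.77, adjusted p = 0.0033), but it has a near-identical copy in the genome and its count is uncertain. Of 8 other kinases of splicing factors, 5 were higher and 1 lower at 8 h, and 3 higher and 0 lower at 24 h. CDK11A (1.12 at 8 h and 0.59 at 24 h) and its near-identical neighbor CDK11B share reads, so their split is uncertain, and DYRK1A rose by 0.14 and 0.23.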
